A study of Mus musculus with 24 samples.

Results

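A set of 10 genes of chemokine and cytokine signaling was followed through the dental mesenchyme of the mouse first mandibular molar: the chemokine ligands Cxcl12, Cxcl14, Cxcl1, Cxcl5, Ccl2 and Ccl7, the receptors Cxcr4, Ackr1 and Ackr3, and the cytokine gene Il6. They were taken as a list of names, drawn up with earlier results of these data known, and all 10 were found among the 56748 genes of the count table. The 24 libraries of bulk RNA sequencing fell into 8 groups of 3. Tooth germs of ICR mice were taken at the cap stage (embryonic day 13) and the bell stage (embryonic day 15), without any mutation or drug. Cap_W and Bell_W were undivided mesenchyme, Cap_L and Bell_L the lingual (tongue) side, and Cap_B and Bell_B the buccal (cheek) side, after the germ had been split with a fine needle. Cap_L_2D and Cap_B_2D were the lingual and the buccal part of the cap stage, each kept alone in culture for 2 days. The labels call W the whole tooth germ, but give mesenchymal cells as the source of every library. Dispase II was used to free the mesenchyme from the epithelium, the methods give 36 embryos from 3 pregnant mice, and no source ties a replicate number to an animal, so the p-values measure the spread between libraries, which may be technical.

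Chemokines are small secreted proteins that direct cells along gradients through receptors coupled to G proteins. Cxcl12 is a constitutive chemokine of connective tissue that signals through Cxcr4, and Ackr3 binds and removes it. Cxcl1 and Cxcl5 call neutrophils through Cxcr2, Ccl2 and Ccl7 call monocytes through Ccr2, and Ackr1, found on small veins and red blood cells, takes up inflammatory chemokines without signaling. Il6 acts through Il6ra and Il6st on Stat3, and with Cxcl1 is a classical target of NF-kappaB. In the tooth, Ccl2 from the dental follicle is known for drawing in the monocytes that form osteoclasts before eruption.

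The total counts per library ran from 20581720 to 39266497, and 3 counts, used here as the floor of detection, correspond to 0.0764 to 0.146 counts per 1000000 (CPM). Levels are given as normalized CPM, which is CPM after correction for library composition over all 24 libraries. Replicates of the divided and cultured groups lay close together, with a coefficient of biological variation of 0.0288 to 0.0447 in the fits, against 0.25 in the fit of the undivided groups. Cap_W replicate 1 stood apart with 5.39% of its counts on the ribosomal RNA gene Rn18s-rs5 and 7.95% on mitochondrial genes, and Bell_W replicate 3 had a summed level of 12 epithelial markers of 2635 CPM against 651 and 726 in the other Bell_W libraries. Markers of dental mesenchyme were detected in all groups: none of 12, among them Msx1, Pax9 and Lhx8, was at the floor. All differences are log2 fold changes with their standard error (SE) from edgeR's quasi-likelihood test, with p-values adjusted by Benjamini-Hochberg over all genes tested. A gene was called higher or lower at an adjusted p under 0.05 and a log2 fold change beyond 0.5 in size.

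The 10 genes lie on 5 chromosomes of GRCm39, and their counts come from their exons. Ccl2 (chr11:81926397-81928279) and Ccl7 (chr11:81936538-81938351) are neighbours on the plus strand with 8.26 kb between them. Cxcl5 (chr5:90907219-90909483) and Cxcl1 (chr5:91039100-91040974) share a strand of chromosome 5 with 129.62 kb between them, and Il6 (chr5:30218112-30224979) lies far from both on the same chromosome. Cxcl12 is at chr6:117145496-117158328 and Cxcl14 at chr13:56436456-56444364. Of the receptors, all on chromosome 1, Ackr3 is at chr1:90131702-90144473, Cxcr4 at chr1:128515936-128520030 and Ackr1 at chr1:173159453-173161317. In Ackr1, 25.7% of the exon bases are shared with Cadm3 on the same strand, and reads over both genes were left out by the counting, so its level is uncertain.

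Promoter sequences are shown for the inflammatory genes that rose together at the bell stage and in culture (below) and had an entry in the RefSeq-derived table of GRCm38.p6. The table held Cxcl12, Cxcl14, Cxcl1, Cxcr4, Ackr1, Ackr3 and Il6. It did not hold Cxcl5, Ccl2 and Ccl7. The windows reach from 250 bases before to 50 bases after the start site. The capitals mark matches to the NF-kappaB consensus, searched on both strands, and each stretch gives the 150 bases before the start site on the plus strand, chr5:90891095-90891244 for Cxcl1 and chr5:30012964-30013113 for Il6.
Cxcl1: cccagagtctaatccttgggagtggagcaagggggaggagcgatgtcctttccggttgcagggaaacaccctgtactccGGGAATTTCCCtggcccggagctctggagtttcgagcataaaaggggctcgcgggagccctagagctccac
Il6: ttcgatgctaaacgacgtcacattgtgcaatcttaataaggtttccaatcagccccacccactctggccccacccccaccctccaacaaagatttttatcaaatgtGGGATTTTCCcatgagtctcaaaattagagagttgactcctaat
Cxcl1 had 2 matches, 1 on each strand, that overlap and begin 71 and 70 bases before the start site, and Il6 had 1 match that begins 44 bases before it. The other 5 windows held no match. Among them was that of Cxcr4, which also rose at the bell stage and in culture (below) but is not shown. Of 32544 promoter windows of the same length, 4.53% held at least 1. The AP-1 motif TGANTCA occurred only in the Il6 window (7.79% of all windows) and the STAT motif TTCNNNGAA only in the Cxcl14 window (8.33% of all windows), among these 7 genes. A match is a description of the letters and was not tested as a binding site.

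Between the sides of the cap stage, Cxcl12 and Cxcl14 were higher in the buccal part and Cxcl1, Cxcl5 and Ackr1 in the lingual part. Together with Il6, this made 3 genes higher and 3 lower on the buccal side of the 9 tested, where 17.5% of all genes tested were called, 10.4% higher and 7.1% lower. Il6 passed the filter on low counts there only through Cap_B, so its direction was fixed. The libraries of the sides did not overlap for 8 of these 9 genes, which held for 52.4% of all genes. Ccl7 was too low to be tested there, with 3 to 11 counts per library in the cap stage parts. At the bell stage, Cxcl12 was the 1 gene called higher on the buccal side and Cxcl1, Cxcl5, Ccl2, Ccl7 and Ackr1 were called lower (12.9% of all genes called, 6% higher and 6.88% lower). The sides did not overlap for 9 of 10 (45.5% of all genes). After culture Cxcl14 was called higher on the buccal side and Cxcl1, Cxcl5, Cxcr4, Ackr1 and Il6 lower (25.1% of all genes called, 12.5% in each direction), with 9 of 10 not overlapping (59.1% of all genes). Cxcl1, Cxcl5 and Ackr1 were thus called lingual-high in all 3 side comparisons. These comparisons have no libraries in common, but no source ties libraries to animals. The Ackr1 call in culture was close to the limit (below).

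**Figure D1:**
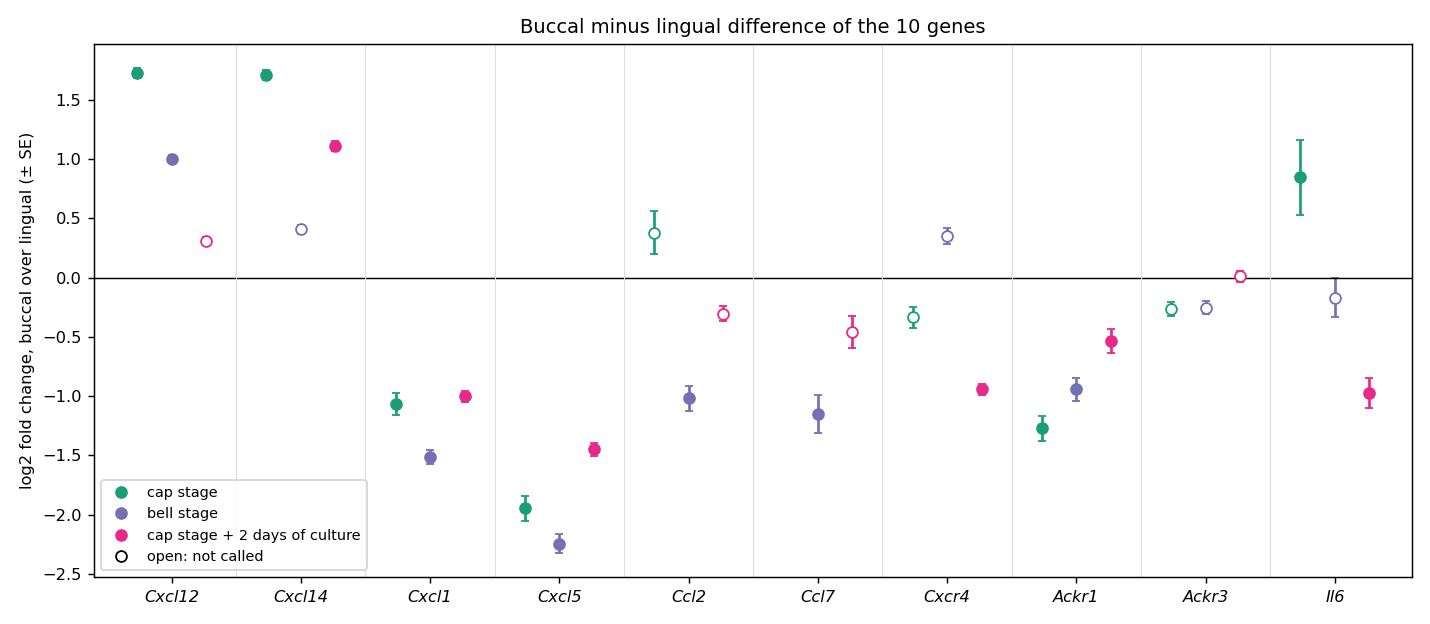
Buccal over lingual log2 fold change of each gene at the cap stage, the bell stage and after 2 days of culture of the cap stage parts. Points are estimates from 3 against 3 libraries, bars are SE, open points were not called, and Ccl7 was not tested at the cap stage. Cxcl12 and Cxcl14 lie above 0 in all 3 comparisons, and Cxcl1, Cxcl5 and Ackr1 below.

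Cxcl12, the ligand of Cxcr4, was at 424, 430 and 428 CPM in Cap_B and at 133, 131 and 132 CPM in Cap_L. The groups did not overlap, and the buccal level was 3.30-fold higher (log2 fold change 1.72 ± 0.04 SE, adjusted p = 4.98e-16). Bell stage libraries gave 353, 348 and 353 CPM on the buccal and 171, 178 and 179 CPM on the lingual side, a 2.00-fold difference (1.00 ± 0.03, adjusted p = 1.61e-27). In culture the levels were 192, 186 and 183 CPM in Cap_B_2D and 149, 153 and 149 CPM in Cap_L_2D. These did not overlap either, but the difference of 0.31 ± 0.04 stayed under the limit on the fold (adjusted p = 1.07e-07). The side difference was smaller at the bell stage than at the cap stage by 0.73 ± 0.05 on the log2 scale (interaction, adjusted p = 1.17e-12) and smaller after culture by 1.42 ± 0.05 (adjusted p = 5.02e-19). On the buccal side Cxcl12 fell 2.32-fold from Cap_B to Cap_B_2D (-1.21 ± 0.03, adjusted p = 3.30e-26), while from Cap_L to Cap_L_2D it differed by 0.20 ± 0.04, under the limit.

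Cxcl14, a chemokine of epithelia and connective tissue, showed the same side with other timing. Its levels were 165, 163 and 166 CPM in Cap_B and 49.3, 52.9 and 51.4 CPM in Cap_L, 3.27-fold apart (1.71 ± 0.04, adjusted p = 1.01e-15). In the bell stage parts they were 66.5, 65.2 and 67.7 CPM on the buccal and 50.4, 48.2 and 51.9 CPM on the lingual side. All buccal libraries lay above all lingual ones, but the log2 difference was 0.41 ± 0.04 and was not called. After culture the buccal part had 91.5, 90.9 and 93.0 CPM and the lingual part 41.5, 44.7 and 40.9 CPM (1.11 ± 0.04, adjusted p = 5.67e-17). The change of the side difference was -1.31 ± 0.06 from cap to bell (adjusted p = 3.55e-17) and -0.60 ± 0.06 over culture (adjusted p = 4.33e-09). On the buccal side Cxcl14 fell from Cap_B to Bell_B by 1.32 ± 0.03 (adjusted p = 3.32e-25) and from Cap_B to Cap_B_2D by 0.86 ± 0.03 (adjusted p = 3.78e-21). On the lingual side neither change was called, at -0.02 ± 0.05 and -0.27 ± 0.05.

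Cxcl12 and Cxcl14 can be set against each other per kilobase of exon. The length used was that of all annotated exons of a gene together, 8176 bases for Cxcl12 and 1827 for Cxcl14. Which transcripts were present was not tested, and the order of different genes depends on this choice of length. In Cap_B, Cxcl14 was the higher of the pair with 90.2 ± 1.1 CPM per kb against 52.3 ± 0.38 for Cxcl12 (SD, n = 3). At Bell_B the order was turned, with 36.4 ± 0.69 CPM per kb for Cxcl14 and 43.0 ± 0.32 for Cxcl12. One of these 2 genes had the highest level per length of the 10 genes in every group except Cap_L_2D. In that group Cxcr4 led with 29.3 ± 0.73 CPM per kb, followed by Cxcl1 with 26.7 ± 0.47.

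Skeletal muscle markers also differed between the sides. Their summed level over 12 genes, among them Myod1, Myog and Acta1, was 285 to 303 CPM in Cap_B against 26.1 to 26.9 in Cap_L, and all 11 tested were called higher. In the bell parts it was 1159 to 1187 CPM on the buccal against 145 to 155 on the lingual side, and in culture 4666 to 4935 against 379 to 405. Epithelial markers went the other way, with 10 of 12 lower in Cap_B, 6 of 12 lower in Bell_B, and 10 of 12 lower and 1 higher in Cap_B_2D. Of 10 markers of Schwann cells and glia, 7 were higher and 2 lower in Cap_B, 5 higher and 2 lower in Bell_B, and 3 higher and 3 lower of 7 tested in Cap_B_2D. Of 10 markers of pericytes and smooth muscle, 4 were higher and 1 lower in Cap_B, 2 higher and none lower in Bell_B, and 3 higher and 5 lower in Cap_B_2D. Beside these counts, 17.5% of all genes were called between the sides at the cap stage, 12.9% at the bell stage and 25.1% in culture. The part of these markers in the side differences of the ligands was not tested, and in bulk samples fewer cells of a type cannot be told apart from less RNA per cell.

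Cxcl1, a neutrophil-attracting ligand, had 14.3, 13.2 and 13.0 CPM in Cap_L and 5.46, 7.16 and 6.30 CPM in Cap_B. All lingual libraries were above all buccal ones (-1.07 ± 0.10, adjusted p = 4.19e-08). The lingual bell libraries had 37.2, 40.1 and 42.2 CPM and the buccal ones 14.3, 13.8 and 13.8 CPM (-1.51 ± 0.06, adjusted p = 1.52e-24). In culture the levels were 51.1, 49.4 and 49.9 CPM on the lingual and 25.5, 24.9 and 25.1 CPM on the buccal side (-1.002 ± 0.048, adjusted p = 2.16e-15). The lingual level was thus 2.09-fold higher before and 2.00-fold higher after culture, and the difference between these side differences was 0.06 ± 0.10 with an approximate 95% interval of -0.14 to 0.26 (adjusted p = 0.692). It was larger at the bell stage than at the cap stage (interaction -0.45 ± 0.11, adjusted p = 0.00223).

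Cxcl5, the second ligand of Cxcr2 among the 10 genes, had the widest lingual excess. In Cap_L it was at 9.62, 10.4 and 9.99 CPM against 2.35, 2.51 and 2.76 CPM in Cap_B, 3.86-fold apart (-1.95 ± 0.11, adjusted p = 4.34e-11). The bell stage levels were 23.3, 25.2 and 24.6 CPM on the lingual and 5.38, 5.55 and 4.50 CPM on the buccal side, 4.74-fold apart (-2.24 ± 0.08, adjusted p = 4.05e-26). In culture they were 40.8, 39.6 and 39.4 CPM against 14.4, 15.4 and 14.3 CPM, 2.73-fold apart (-1.45 ± 0.06, adjusted p = 2.30e-17). No lingual library overlapped a buccal one in any of the 3 settings. The side difference shrank over culture (interaction 0.50 ± 0.12, adjusted p = 0.00181) and did not pass the test for a change between stages (-0.30 ± 0.14, adjusted p = 0.112). Cxcr2, the receptor of both ligands, was chosen for mention after its values were seen, and had 0 to 15 counts per library. The summed level of 10 neutrophil markers, among them S100a8 and Ly6g, was low throughout, with group means of 1.81 to 11.4 CPM, and in 6 of the 8 groups at least 2 of them were at or under the floor. In culture it was 10.7 to 12.1 CPM in Cap_L_2D and 3.86 to 5.21 in Cap_B_2D, where all 7 tested were called lower, the direction of Cxcl1 and Cxcl5. In the bell stage parts it was 5.18 to 5.86 CPM in Bell_L and 8.46 to 9.40 in Bell_B, where 4 of 7 were called higher and none lower, the opposite direction. Bell_W, at 9.27 to 11.9 CPM, overlapped Cap_L_2D. Of all genes, 25.1% were called between the sides in culture and 12.9% at the bell stage. Some neutrophil markers may have passed the filter on low counts only through the higher group, which fixes their direction. Elane had 0.24 ± 0.06 CPM in Cap_B_2D and 0.57 ± 0.27 in Cap_L_2D, and Ltf 0.18 ± 0.098 in Bell_L and 0.94 ± 0.22 in Bell_B. The part of neutrophils in the result was not tested.

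Both ligands rose with stage and in culture on each side. From cap to bell, Cxcl1 rose by 1.57 ± 0.06 on the lingual side and 1.13 ± 0.08 on the buccal side, and Cxcl5 by 1.29 ± 0.06 and 1.00 ± 0.13. Over culture Cxcl1 rose by 1.90 ± 0.06 in the lingual and 1.97 ± 0.07 in the buccal part, and Cxcl5 by 2.00 ± 0.06 and 2.51 ± 0.10. The largest adjusted p of these 8 changes was 4.13e-08. The stage and the culture comparison of a side share the cap stage libraries, so their likeness is no separate evidence.

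**Figure D2:**
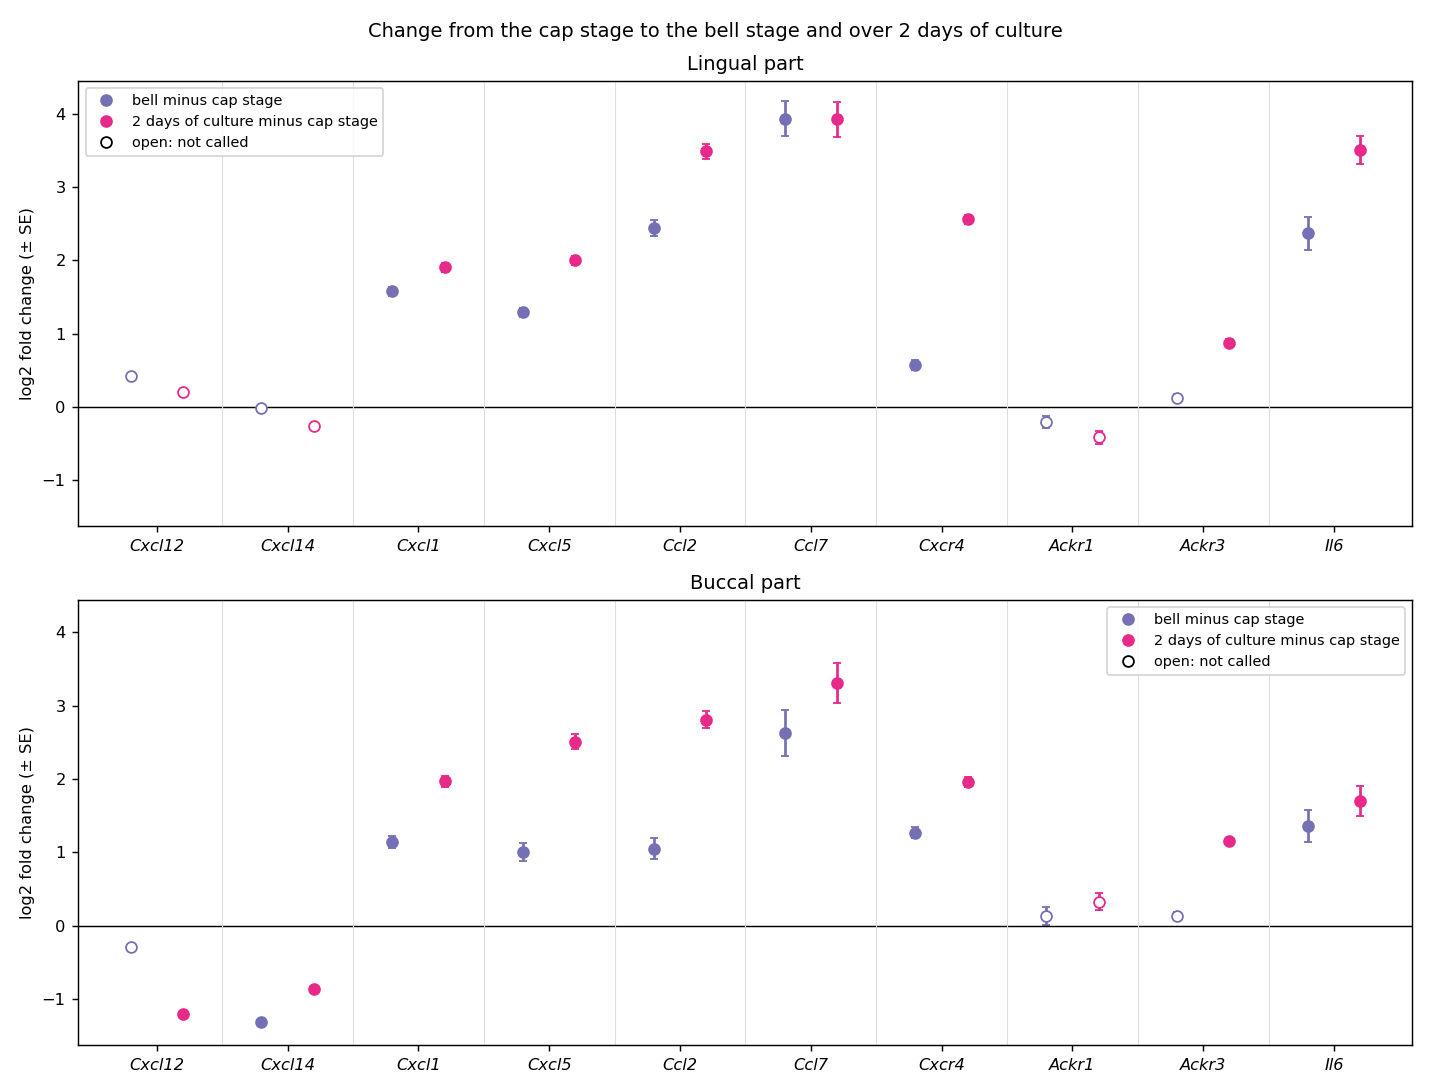
Log2 fold change of each gene from the cap to the bell stage and from the cap stage to 2 days of culture, for the lingual (top) and the buccal part (bottom). Points are estimates from edgeR, bars are SE, open points were not called, and both comparisons of a side use the same 3 cap stage libraries. Cxcl1, Cxcl5, Ccl2, Ccl7, Cxcr4 and Il6 lie above 0 throughout, and Cxcl12 and Cxcl14 lie below 0 on the buccal side.

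For the whole set, 6 of 10 genes were called higher and none lower in Bell_L than in Cap_L, with 20% of all genes called, 14.2% higher and 5.78% lower. The libraries did not overlap for 8 of 10, against 55.9% of all genes. In Bell_B against Cap_B, 6 were higher and 1 lower (18.7% of all genes called, 12% higher and 6.73% lower), and all 10 did not overlap (55.4% of all genes). Over culture 7 were higher and none lower on the lingual side (35.4% of all genes called, 19.6% higher and 15.9% lower), and 7 were higher and 2 lower on the buccal side (34.5%, 17.9% higher and 16.6% lower). In culture all 10 genes were without overlap on each side, which held for 67.5% of all genes in the lingual and 69% in the buccal comparison. The median log2 fold change of the 10 genes was 0.93 and 1.02 for stage and 1.95 and 1.83 for culture, lingual before buccal, against medians of 0.00 and 0.00 and of -0.03 and -0.02 over all genes tested. Ccl7, too low for testing between the cap stage parts, passed the filter on low counts here only through the bell stage and culture libraries. Its direction was thus fixed, and it adds to these counts and medians. The same held for Il6 on the lingual side, where it passed only through Bell_L and Cap_L_2D. Of all genes called over culture on the lingual side, 55.3% were higher, but 40.4% were when libraries were scaled to total counts only, which moved the median of all genes by -0.15, and Ackr1 (-0.57) was then called as well.

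Ccl2, the monocyte attractant, was low at the cap stage, with 1.57, 1.78 and 1.38 CPM in Cap_L and 1.67, 2.05 and 2.33 CPM in Cap_B. These groups overlapped, and the difference of 0.38 ± 0.18 was not called (adjusted p = 0.107). In Bell_L it was at 8.48, 8.68 and 8.60 CPM, 5.42-fold above Cap_L (2.44 ± 0.11, adjusted p = 2.78e-15), and in Bell_B at 3.77, 3.88 and 5.03 CPM, 2.07-fold above Cap_B (1.05 ± 0.15, adjusted p = 3.20e-07). The sides therefore separated at the bell stage, where the lingual level was 2.03-fold higher (-1.02 ± 0.10, adjusted p = 5.57e-11), and the change of the side difference was -1.40 ± 0.21 (interaction, adjusted p = 5.09e-06). Culture gave the highest levels, with 18.1, 18.2 and 17.2 CPM in Cap_L_2D and 14.4, 14.7 and 14.4 CPM in Cap_B_2D. The rise was 11.2-fold on the lingual side (3.49 ± 0.10, adjusted p = 5.98e-20) and 7.02-fold on the buccal side (2.81 ± 0.11, adjusted p = 1.65e-20). The side difference in culture, -0.30 ± 0.06, was under the limit on the fold, and its change over culture was -0.68 ± 0.18 (interaction, adjusted p = 0.00287).

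Ccl7, the neighbouring gene, was near the floor at the cap stage, with 8, 9 and 4 counts in Cap_L and 4, 3 and 11 counts in Cap_B, or 0.125 to 0.428 CPM over the 6 libraries. In Bell_L it reached 3.31, 3.13 and 4.05 CPM and in Bell_B 1.74, 1.71 and 1.29 CPM. From the summed counts, the ratio of Bell_L to Cap_L was 15.5 (95% exact interval 9.93 to 25.3) and that of Bell_B to Cap_B 6.28 (3.83 to 10.9); these intervals cover counting error only. The fitted rises were 3.93 ± 0.24 (adjusted p = 5.11e-13) and 2.62 ± 0.31 (adjusted p = 1.65e-08). Ccl7 passed the filter on low counts only through the bell stage and culture libraries. The direction of these rises was thus fixed, and the p-values are no separate evidence for it. The bell stage sides did not overlap, and the lingual one was higher (-1.15 ± 0.16, adjusted p = 1.02e-07). In culture Ccl7 was at 3.78, 3.19 and 3.54 CPM in the lingual and 2.33, 2.89 and 2.50 CPM in the buccal part. Cap_L_2D and Bell_L overlapped, with a difference of -0.01 ± 0.14 and an approximate 95% interval of -0.28 to 0.26.

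Markers of macrophages moved in the same comparisons. The summed level of 12 of them, among them Csf1r, Adgre1 and C1qa, was 101 to 106 CPM in Cap_L and 109 to 115 in Cap_B, 387 to 391 in Bell_L and 214 to 215 in Bell_B, and 361 to 374 in Cap_L_2D and 233 to 245 in Cap_B_2D. All 12 were called higher in Bell_L than in Cap_L and 11 of 12 in Bell_B than in Cap_B (20% and 18.7% of all genes called). Over culture 11 of 12 were called higher on the lingual and 9 of 12 on the buccal side (35.4% and 34.5% of all genes called), and none of the 12 was at the floor in any group. Between sides, 9 of 12 were lower in Bell_B than in Bell_L (12.9% of all genes called), and 8 of 12 lower in Cap_B_2D than in Cap_L_2D (25.1%). At the cap stage 1 of these markers was higher and none lower (17.5%). Their part in the levels of Ccl2, Ccl7, Il6 and Cxcr4 was not tested. Ccr2, the receptor of Ccl2 and Ccl7 carried by monocytes, did not follow its ligands in culture: it had 0.97 ± 0.06 CPM in Cap_L, 2.69 ± 0.48 in Bell_L and 0.15 ± 0.07 in Cap_L_2D (SD, n = 3). It rose by 1.49 ± 0.20 from Cap_L to Bell_L and was 4.07 ± 0.29 lower on the log2 scale in Cap_L_2D than in Bell_L (adjusted p = 5.84e-12). On the buccal side it fell by 3.61 ± 0.40 over culture (adjusted p = 1.59e-09), to 0.09 ± 0.07 CPM. Ccr2 was near the floor in both cultured groups and passed the filter on low counts only through the cap and bell stage libraries. The direction of its differences in culture was thus fixed.

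**Figure D3:**
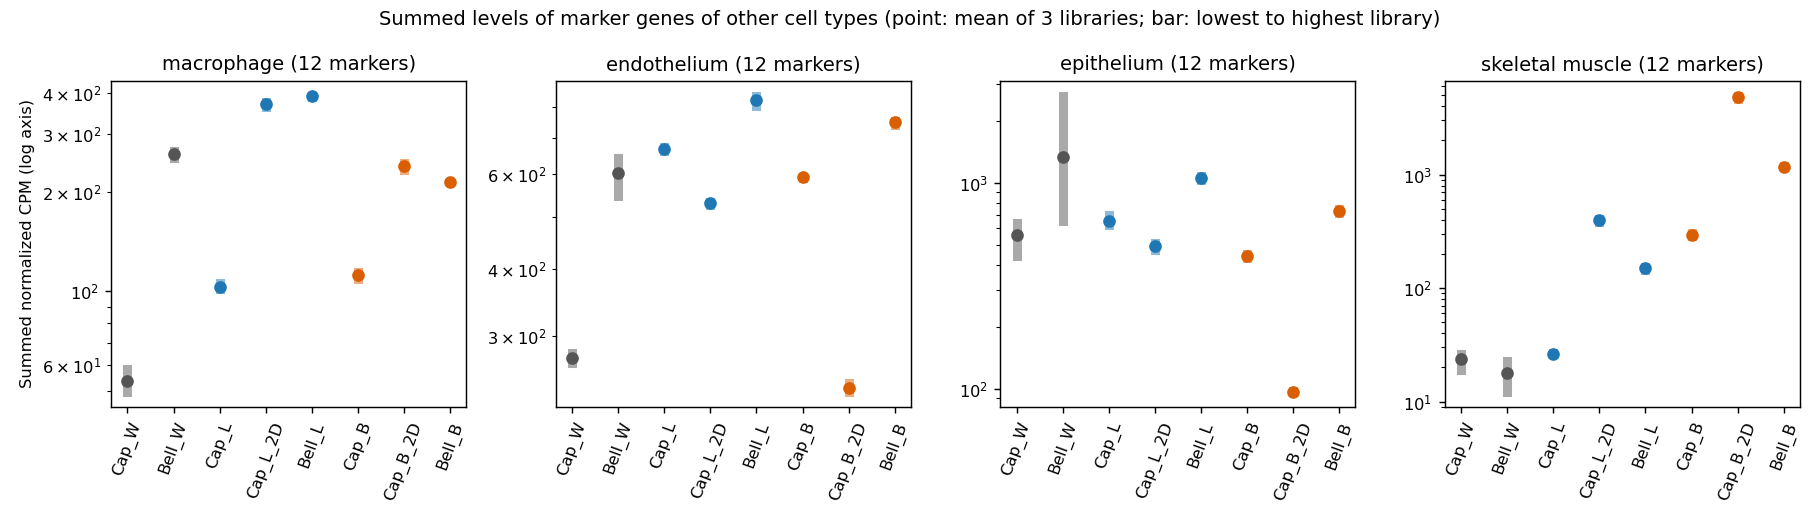
Summed normalized CPM of marker genes of 4 other cell types in the 8 groups, on log axes that differ in range. Points are means of 3 libraries and bars run from the lowest to the highest library. The macrophage sum is higher at the bell stage and in culture than in the cap stage parts, the muscle sum is higher in every buccal group than in its lingual partner, and 1 Bell_W library reaches 2635 CPM of epithelial markers.

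Among the receptors, Cxcr4, through which Cxcl12 signals, had 9.01, 8.76 and 9.32 CPM in Cap_L and 6.59, 7.57 and 6.89 CPM in Cap_B, a difference under the limit (-0.34 ± 0.09). At the bell stage the order of the sides was turned, with 13.6, 12.8 and 13.6 CPM on the lingual and 16.5, 17.0 and 17.6 CPM on the buccal side (0.35 ± 0.07, also under the limit). The groups overlapped in neither pair, and the change of the side difference was 0.68 ± 0.11 (interaction, adjusted p = 8.37e-06). In culture Cxcr4 reached 52.3, 54.5 and 52.1 CPM in Cap_L_2D and 27.6, 27.1 and 28.3 CPM in Cap_B_2D, the lingual level being 1.92-fold higher (-0.94 ± 0.05, adjusted p = 7.26e-15; interaction with culture -0.61 ± 0.10, adjusted p = 7.70e-06). The rise over culture was 5.90-fold on the lingual side (2.56 ± 0.06, adjusted p = 9.90e-22) and 3.89-fold on the buccal side (1.96 ± 0.07, adjusted p = 2.40e-22). With stage it rose by 0.57 ± 0.07 in the lingual and 1.27 ± 0.07 in the buccal part.

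Ackr3, the scavenger of Cxcl12, was called in none of the 3 side comparisons. It had 27.6, 28.9 and 30.4 CPM in Cap_L and 24.1, 23.7 and 23.2 CPM in Cap_B (-0.27 ± 0.06). The bell stage levels were 29.3 to 32.9 CPM on the lingual and 25.1 to 26.8 CPM on the buccal side, and neither side was called changed from the cap stage. In culture Ackr3 rose to 54.2, 52.0 and 51.7 CPM in Cap_L_2D and 51.0, 53.5 and 55.4 CPM in Cap_B_2D, which overlapped (0.01 ± 0.05, interval -0.08 to 0.10). The rise was 0.87 ± 0.05 on the lingual (adjusted p = 4.08e-13) and 1.15 ± 0.05 on the buccal side (adjusted p = 7.22e-20), and the change of the side difference was 0.27 ± 0.07 (interaction, adjusted p = 0.00393).

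In culture, then, Cxcr4 and Ackr3 were higher on both sides, while their ligand Cxcl12 was 2.32-fold lower on the buccal side and within the limit on the fold on the lingual side. Against the bell stage of the same side, Cap_L_2D had 3.96-fold more Cxcr4 (1.99 ± 0.06, adjusted p = 1.29e-19) and 1.68-fold more Ackr3 (0.75 ± 0.05, adjusted p = 9.80e-12). Cap_B_2D had 1.62-fold more Cxcr4 (0.69 ± 0.06, adjusted p = 1.12e-12), 2.02-fold more Ackr3 (1.02 ± 0.05, adjusted p = 5.66e-19) and 1.89-fold less Cxcl12 (-0.92 ± 0.03, adjusted p = 7.72e-23) than Bell_B. Of the 10 genes, 5 were called higher and none lower in Cap_L_2D than in Bell_L (31.2% of all genes called, 14.4% higher and 16.8% lower), and 6 higher and 1 lower in Cap_B_2D than in Bell_B (31.8%, 15.5% higher and 16.3% lower). The groups did not overlap for 9 and 8 of the 10 genes, against 67.3% and 66.8% of all genes. Scaling to total counts moved the share of higher calls among all genes from 46.3% to 35.1% in the lingual comparison, with a shift of -0.11 in the median of all genes. Beside Cxcr4 and Ackr3, the genes above the bell stage were Cxcl5, Ccl2 and Il6 on the lingual side and Cxcl1, Cxcl5, Ccl2 and Ccl7 on the buccal side. Cxcl1 differed by 0.33 ± 0.05 from Bell_L, under the limit.

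Ackr1, the receptor of small veins and red cells, was at 10.4, 9.13 and 9.50 CPM in Cap_L and 4.11, 3.72 and 3.97 CPM in Cap_B (-1.27 ± 0.10, adjusted p = 9.33e-09). At the bell stage it had 8.03, 8.68 and 8.24 CPM on the lingual and 4.13, 4.62 and 4.24 CPM on the buccal side (-0.94 ± 0.10, adjusted p = 1.10e-10), and in culture 6.81, 7.90 and 6.91 against 5.05, 4.46 and 5.41 CPM (-0.54 ± 0.10, adjusted p = 8.33e-05). The lingual side was higher each time, and the difference shrank over culture (interaction 0.73 ± 0.15, adjusted p = 0.000192). The culture call at -0.54 is close to the limit and was lost when libraries were scaled to their total counts only (-0.49) or when Cap_L_2D replicate 2 or Cap_B_2D replicate 2 was left out (-0.47 for each). None of the 4 changes with stage or culture was called. Over culture, 10 summed erythroid markers went from 2911 to 3597 CPM in Cap_L to 34.6 to 40.7 in Cap_L_2D. Of 12 endothelial markers, 1 was called higher and 4 lower in Cap_L_2D than in Cap_L (35.4% of all genes called). All 12 were called lower in Cap_B_2D than in Cap_B (34.5%), where their sum went from 589 to 594 CPM to 236 to 245. Between sides, none of the endothelial or erythroid markers was called at either stage (17.5% and 12.9% of all genes called). In culture (25.1%), 10 of 12 endothelial markers were lower in the buccal part and none higher, with a median of -1.07. Of 8 erythroid markers tested there, 2 were higher and 4 lower. The part of these cells in the levels of Ackr1 was not tested. The genes most like Ackr1 over the 24 libraries were Gm9790 (Pearson r of log2 CPM 0.89), Cadm3 (0.88), with which it shares exon bases, and Numb (0.88).

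Il6 was low in all groups. At the cap stage it had 14, 19 and 7 counts in Cap_L and 20, 18 and 17 counts in Cap_B, or 0.50, 0.53 and 0.25 CPM against 0.90, 0.75 and 0.66 CPM. The buccal excess was called (0.84 ± 0.31, adjusted p = 0.0382) but rests on few counts: it was lost with DESeq2, in a fit of all 24 libraries and when any library other than Cap_L replicate 2 was left out. Between the cap stage parts Il6 passed the filter on low counts only through Cap_B, so the direction of this excess was fixed. At the bell stage the sides overlapped, with 2.55, 2.08 and 2.13 CPM in Bell_L and 2.16, 2.06 and 1.75 CPM in Bell_B (-0.17 ± 0.16, adjusted p = 0.459). In culture the order was the opposite of the cap stage, with 5.01, 4.95 and 4.89 CPM in Cap_L_2D and 2.88, 2.02 and 2.59 CPM in Cap_B_2D (-0.97 ± 0.13, adjusted p = 5.05e-07). The change of the side difference over culture was -1.82 ± 0.34 (interaction, adjusted p = 6.73e-05). The change between stages, -1.02 ± 0.34 (adjusted p = 0.0230), was lost under the same 2 other fits and without Cap_L replicate 3, Cap_B replicate 1 or Bell_L replicate 1.

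The rise of Il6 was called on both sides. It was 5.17-fold from Cap_L to Bell_L (2.37 ± 0.22, adjusted p = 2.60e-09) and 2.57-fold from Cap_B to Bell_B (1.36 ± 0.22, adjusted p = 3.57e-06). Over culture it was 11.4-fold on the lingual (3.51 ± 0.19, adjusted p = 2.62e-14) and 3.24-fold on the buccal side (1.69 ± 0.21, adjusted p = 1.00e-08). With 14, 19 and 7 counts in Cap_L, Il6 passed the filter on low counts on the lingual side only through Bell_L and Cap_L_2D. The direction of both lingual rises was thus fixed. Cap_L_2D also lay 2.20-fold above Bell_L (1.14 ± 0.14, adjusted p = 1.33e-07), whereas Cap_B_2D and Bell_B overlapped.

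In the undivided mesenchyme Cxcl1, Ccl2, Ccl7, Cxcr4 and Il6 were higher at the bell stage. Of the 10 genes, 5 were called higher and 2 lower in Bell_W than in Cap_W, where 14.5% of all genes were called, 10.3% higher and 4.21% lower. Il6 and Ccl7, at 0 to 3 counts per Cap_W library, passed the filter on low counts only through Bell_W, so their direction was fixed. The groups did not overlap for 9 of 10 (36.8% of all genes). Cxcl1 went from 3.12, 2.73 and 2.28 CPM in Cap_W to 19.4, 23.6 and 29.2 CPM in Bell_W (3.14 ± 0.21, adjusted p = 0.000276), Ccl2 from 0.61, 0.66 and 0.45 to 4.31, 3.51 and 6.04 CPM (2.99 ± 0.34, adjusted p = 0.00150), and Cxcr4 from 2.06, 3.95 and 4.21 to 14.5, 11.2 and 12.0 CPM (1.85 ± 0.29, adjusted p = 0.00545). No Cap_W library overlapped a Bell_W library for these 3 genes. Il6 had 1 count in each Cap_W library and 75, 89 and 38 counts in Bell_W, a ratio of 58.9 (95% exact interval 19.9 to 288), and Ccl7 had 0, 2 and 3 counts against 48, 43 and 59, a ratio of 26.2 (11.0 to 82.0). Both were called (adjusted p = 0.00142 for Il6 and 0.00258 for Ccl7), but their fitted fold depends on the prior count and is not given.

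Cxcl14 (34.5, 32.3 and 35.5 CPM in Cap_W and 19.5, 17.1 and 28.04 CPM in Bell_W) and Ackr3 (43.1, 53.9 and 42.3 against 23.2, 22.9 and 33.9 CPM) were the genes called lower. Bell_W replicate 3, the library with the high epithelial sum, was the highest of its group for both. Cxcl14 passed narrowly (-0.67 ± 0.19, adjusted p = 0.0489), and its call was lost when any library other than Bell_W replicate 3 was left out. That of Ackr3 (-0.81 ± 0.19, adjusted p = 0.0252) was lost without Cap_W replicate 2 or 3 or Bell_W replicate 1 or 2. Cxcl5 (1.03 ± 0.34, adjusted p = 0.0806) and Ackr1 (1.11 ± 0.34, adjusted p = 0.0635) were not called, but both were when Cap_W replicate 1, the library with the high ribosomal and mitochondrial share, was left out (1.40 and 0.80). Both were also called with DESeq2, without a filter on low counts and in 1 fit of all 24 libraries, and Cxcl5 also with scaling to total counts. Macrophage markers were again higher, all 12 of them, from 49.6 to 58.4 CPM in Cap_W to 253 to 266 in Bell_W, as were all 12 endothelial markers (10.3% of all genes called higher). The part of these markers in the result was not tested.

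The undivided and the divided mesenchyme of a stage were not at one level. All 3 Cap_W libraries lay below all Cap_L and Cap_B libraries for Cxcl14, Cxcl1, Ccl2, Cxcr4 and Il6 and above them for Ackr3, so 6 of the 9 genes that passed the filter on low counts were outside the range of both parts (29.4% of all genes at the cap stage). At the bell stage this held for 2 of 10, Cxcl14 below and Ackr1 above (19.2% of all genes). For Cxcl1 the Cap_W mean of 2.71 ± 0.42 CPM compares with 6.31 ± 0.85 in Cap_B and 13.5 ± 0.70 in Cap_L (SD, n = 3). The macrophage and endothelial sums were also lower in Cap_W than in either part, at 49.6 to 58.4 and 267 to 279 CPM against at least 101 and 589 CPM, and their part in it was not tested. The stage comparisons of the undivided and of the divided groups were therefore kept apart.

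**Figure D4:**
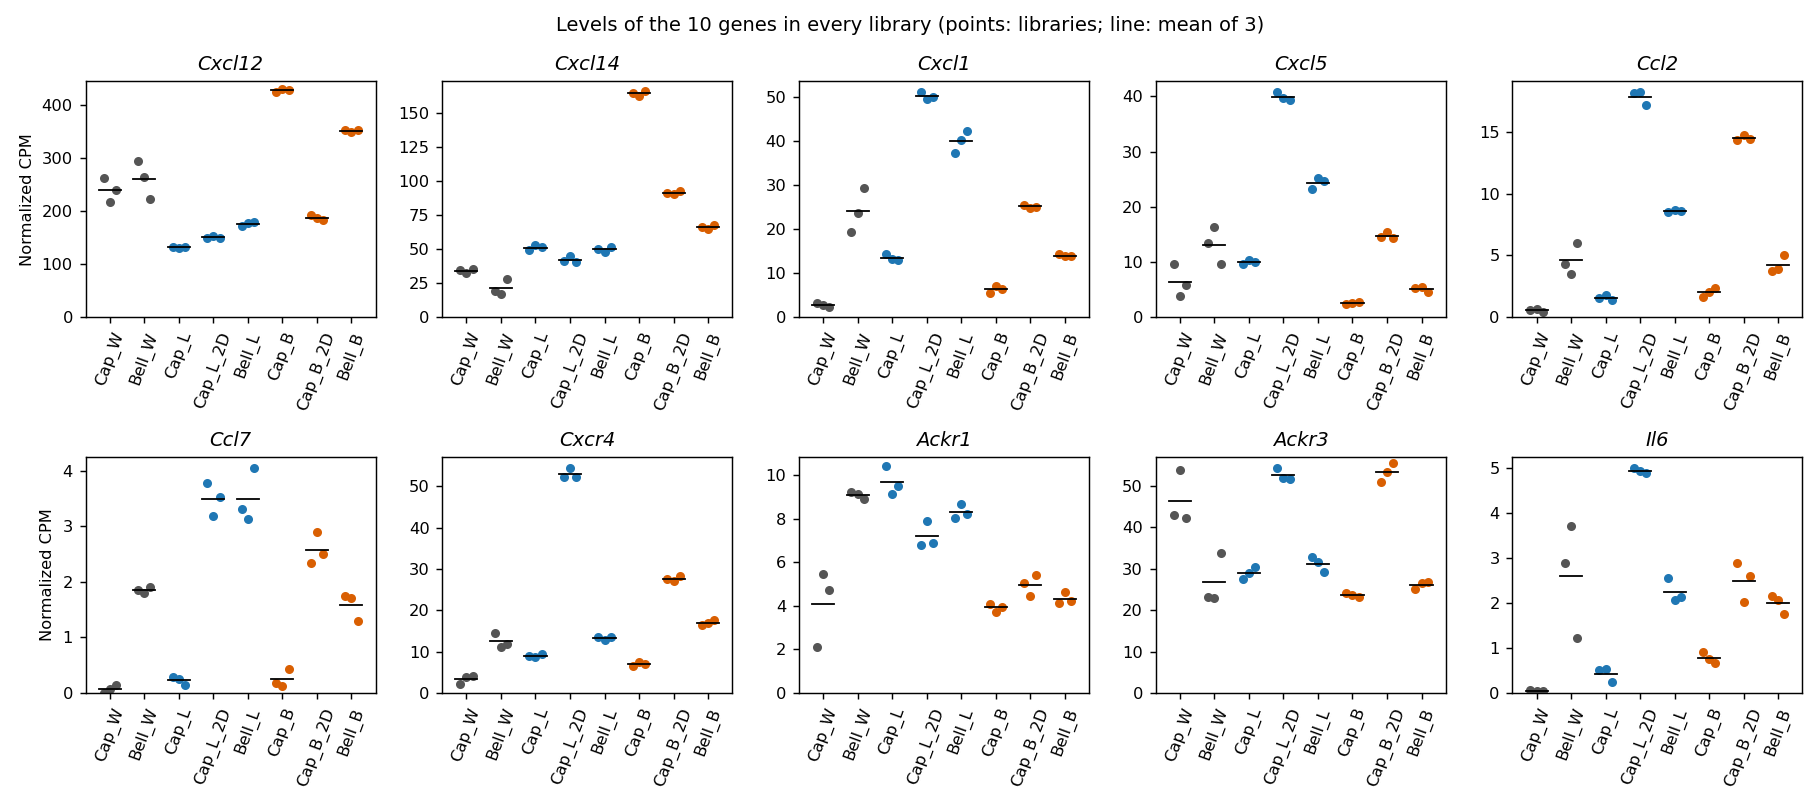
Normalized CPM of the 10 genes in each of the 24 libraries, by group, on linear axes from 0 (points: libraries; lines: means of 3; grey undivided, blue lingual, orange buccal). Cap_L_2D has the highest mean for Cxcl1, Cxcl5, Ccl2, Cxcr4 and Il6, Cap_B for Cxcl12 and Cxcl14, and Cap_W the lowest mean for Cxcl1, Ccl2, Ccl7, Cxcr4 and Il6.

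Over the 8 groups, the order of the levels fell into a few patterns. Cxcl12 ran from Cap_B (427 ± 3.1 CPM) over Bell_B (351 ± 2.6), Bell_W, Cap_W, Cap_B_2D (187 ± 4.4), Bell_L (176 ± 4.0) and Cap_L_2D (150 ± 2.3) to Cap_L (132 ± 1.0), and of these neighbours only Bell_W and Cap_W overlapped. Cxcl14 began with Cap_B (165 ± 2.0), Cap_B_2D (91.8 ± 1.1) and Bell_B (66.5 ± 1.3) and ended with Bell_W (21.6 ± 5.7), with Cap_L and Bell_L overlapping in the middle. Cxcl1 and Cxcl5 had one order at the top, Cap_L_2D, Bell_L, Cap_B_2D and Bell_W, of which Cap_B_2D and Bell_W overlapped for both genes. Ccl2 and Cxcr4 were highest in Cap_L_2D and then in Cap_B_2D, without overlap. Ccl7 did not differ beyond its spread between Cap_L_2D and Bell_L, and for Il6 Cap_L_2D (4.95 ± 0.06) stood above a run of Bell_W, Cap_B_2D, Bell_L and Bell_B in which each overlapped the next. Ackr1 was led by Cap_L (9.69 ± 0.68) and Bell_W (9.09 ± 0.16), which overlapped, and Ackr3 by Cap_B_2D, Cap_L_2D and Cap_W, each overlapping the next.

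The genes with the most similar pattern were sought by Pearson's r of log2 CPM over the 24 libraries among genes at an average of at least 2 on that scale, and are given as a description, since the libraries of a group share tissue and handling. Ccl7 was closest to the macrophage genes Adgre1 (r = 0.97) and C1qc (0.97) and to Tmem106a (0.96). Il6 was closest to Tyrobp (0.97), an adaptor of myeloid receptors, Ctsk (0.97), the protease of osteoclasts, and Anxa4 (0.97). Ccl2 was closest to Ackr4 (0.99), a scavenging receptor of other chemokines, and to Anxa1 and Emc3 (0.98 each). Cxcl1 was closest to Dhrs7 and Manba (0.98 each) and to Nfkbiz (0.98), a nuclear partner of NF-kappaB, and Cxcl5 to Prxl2c (0.96), Plin2 (0.94) and Tnfrsf11b (0.93), the decoy receptor that limits osteoclast formation. For Cxcl14 they were Creb5 (0.97), Arhgef7 (0.95) and Osr1 (0.94), and for Cxcl12 Heph (0.93), Ikzf2 (0.90) and Ptpdc1 (0.90). For Cxcr4 they were Fkbp11, Plekhf1 and H2-K1 (0.97 each), and for Ackr3 Sox9 (0.93), Dhx40 and Timm29 (0.87 each).

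The remaining chemokine genes gave a wider view. A list gene near the floor in 1 group could pass the filter on low counts only through the other. Ccl24 was such a gene, with 0.22 ± 0.07 CPM in Cap_L and 1.84 ± 0.34 in Bell_L. The filter then sets the direction. The counts and medians of this list and of those below therefore lean toward the group with the higher level. Of 32 other chemokine ligands, 12 were called higher and 1 lower in Bell_L than in Cap_L among 20 tested, and 11 higher and 2 lower in Bell_B than in Cap_B among 18, where 20% and 18.7% of all genes were called. The median log2 fold change of the tested ones was 1.16 and 0.87, against 0.00 in both comparisons over all genes. The lymphatic ligand Ccl21a went from 0.54 ± 0.13 CPM in Cap_L to 49.9 ± 2.2 in Bell_L (6.55 ± 0.11, adjusted p = 4.49e-24), which is uncertain because near-identical copies of this gene exist, and Pf4, of platelets and macrophages, from 2.49 ± 0.25 to 18.3 ± 0.44 (2.88 ± 0.09, adjusted p = 1.81e-18). In culture, 12 ligands rose and 3 fell of 20 on the lingual side, and 5 rose and 6 fell of 18 on the buccal side, with medians of 1.30 and 0.09, where 35.4% and 34.5% of all genes were called. Cxcl10, a target of interferon, went from 0.49 ± 0.06 to 7.64 ± 0.64 CPM on the lingual side (3.97 ± 0.16, adjusted p = 8.75e-17) and Cx3cl1 from 6.03 ± 0.60 to 34.9 ± 0.56 (2.53 ± 0.08, adjusted p = 1.81e-19). Between the cultured sides 14 of 19 tested ligands were lower in the buccal part and none higher, with a median of -0.96 (25.1% of all genes called), and Ccl6 showed the largest difference (1.45 ± 0.11 against 9.96 ± 0.54 CPM).

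Of 21 other chemokine receptors, 7 of 10 tested were called higher in Bell_L than in Cap_L and 9 of 12 in Bell_B than in Cap_B, with none lower, where 20% and 18.7% of all genes were called. Their median log2 fold change was 0.99 and 1.04. They included Cx3cr1 of resident macrophages, from 9.37 ± 0.99 to 39.2 ± 1.4 CPM on the lingual side (2.08 ± 0.07, adjusted p = 1.29e-17). In culture 5 rose and 2 fell of 10 on the lingual side and 5 rose and 4 fell of 12 on the buccal side, with medians of 0.58 and 0.07, where 35.4% and 34.5% of all genes were called. Ackr4 was among the risers on both, from 2.06 ± 0.41 to 25.3 ± 0.80 CPM in the lingual part (3.65 ± 0.10, adjusted p = 1.69e-20) and from 2.22 ± 0.15 to 25.5 ± 1.4 CPM in the buccal part (3.50 ± 0.10, adjusted p = 5.08e-25). The cultured sides differed in 2 of 9 receptors tested, with a median of 0.02 and 25.1% of all genes called, Cmklr1 being higher (0.83 ± 0.07) and Ccr1 lower (-0.64 ± 0.16) in the buccal part.

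Around Il6, 9 of 16 tested genes of its family and signaling rose and none fell in Cap_L_2D against Cap_L, and 8 rose and 2 fell in Cap_B_2D against Cap_B. Their medians were 0.79 and 0.47, and 35.4% and 34.5% of all genes were called in these comparisons. Stat3, the transcription factor that the family activates, went from 71.5 ± 2.2 to 361 ± 6.4 CPM on the lingual side (2.34 ± 0.04, adjusted p = 1.21e-23) and from 67.2 ± 0.88 to 264 ± 4.0 CPM on the buccal side (1.96 ± 0.03, adjusted p = 1.00e-30). Socs3, its feedback inhibitor, rose on the buccal side from 93.4 ± 2.2 to 350 ± 19 CPM (1.89 ± 0.04, adjusted p = 1.32e-28). On the lingual side it was at 166 ± 11 CPM in Cap_L and 602 ± 24 in Cap_L_2D. The related cytokine Lif (3.32 ± 0.14 lingual, 2.90 ± 0.19 buccal) and the oncostatin M receptor Osmr (4.04 ± 0.15 and 4.18 ± 0.16) rose with them. Socs3 was also lower on the buccal side in all 3 side comparisons, by 0.81 ± 0.05 at the cap stage, 0.67 ± 0.03 at the bell stage and 0.79 ± 0.04 in culture on the log2 scale (largest adjusted p = 1.47e-10). With stage, 5 of 16 genes rose and 2 fell on the lingual side and 6 rose and none fell on the buccal side, with medians of 0.35 and 0.25, where 20% and 18.7% of all genes were called.

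Of 35 genes of NF-kappaB signaling and acute inflammation, 29 of 33 tested rose and 2 fell over culture on the lingual side, and 24 rose and 4 fell of 34 on the buccal side. The median was 1.24 and 0.91, against -0.03 and -0.02 over all genes, of which 35.4% and 34.5% were called. Ptgs2, the inducible cyclooxygenase, went from 3.23 ± 0.46 to 93.4 ± 5.0 CPM in the lingual part (4.87 ± 0.08, adjusted p = 5.63e-25) and from 5.31 ± 0.51 to 28.5 ± 0.99 in the buccal part (2.41 ± 0.08, adjusted p = 8.18e-23). The side difference of Ptgs2 changed by -2.48 ± 0.13 over culture (interaction, adjusted p = 1.16e-15). Il1rn, the interleukin 1 receptor antagonist, rose by 4.40 ± 0.20 and 2.67 ± 0.22. The group was not uniform: Il1b, the cytokine that Il1rn opposes, fell on the buccal side from 4.91 ± 0.45 to 0.16 ± 0.06 CPM (-4.87 ± 0.23, adjusted p = 1.22e-18), and in Cap_L_2D it was at 0.49 ± 0.10 CPM against 10.4 ± 0.28 in Bell_L (-4.35 ± 0.15, adjusted p = 6.30e-18). With stage, 19 of 33 rose in the lingual and 14 of 34 in the buccal part, with none lower, where 20% and 18.7% of all genes were called. Between sides, 14 of 33 were lower and 3 higher in Cap_B_2D than in Cap_L_2D, against 8 higher and 2 lower of 31 at the cap stage (25.1% and 17.5% of all genes called). Il33, an alarmin of stromal and vessel cells, was higher on the buccal side throughout, at 1.21 ± 0.14 against 0.15 ± 0.15 CPM at the cap stage, 5.86 ± 0.12 against 0.78 ± 0.02 at the bell stage and 1.87 ± 0.31 against 0.32 ± 0.07 in culture. At the cap stage and in culture Il33 passed the filter on low counts only through the buccal part, so its direction there was fixed.

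For the changes of side differences as a whole, 6 of the 10 genes passed the test between stages, 1 upward (Cxcr4) and 5 downward, where 32.5% of all genes did, 14.5% upward and 18% downward. Over culture 8 of 10 passed, 3 upward (Cxcl5, Ackr1 and Ackr3) and 5 downward (35.5% of all genes, 16% upward and 19.5% downward). With scaling to total counts, the share of upward calls among all genes went from 44.6% to 55.4% between stages and from 45% to 59% over culture. The medians of the 10 genes were -0.59 and -0.61 against -0.02 and -0.01 over all genes tested. In the undivided stage comparison, the lists around the 10 genes moved in 1 direction only, with 10 of 17 other ligands, 7 of 9 other receptors, 7 of 15 genes of the Il6 family and 20 of 30 NF-kappaB genes higher in Bell_W and none lower, where 10.3% of all genes were called higher and 4.21% lower.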

How the data were processed

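RNA was sequenced from 24 libraries of mouse dental mesenchyme, 3 in each of 8 groups, assigned from the sample titles. The authors deposited 1 table of raw counts of read pairs per gene, without normalization. Per the file headers, it was made with featureCounts in paired mode, without strand, over the exons of Ensembl release 107 of GRCm39, leaving out pairs that mapped to several places or genes. Sources differ on the steps before: the submitters' processing notes name Trimmomatic 0.39, Bowtie 1.2.3 and Subread 2.0.3 and the labels a SMARTER kit, whereas the paper's methods name a stranded TruSeq kit and other trimming and alignment tools. With counting without strand, reads of a gene and an antisense partner cannot be told apart.

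Counts were fitted with edgeR 4.0.16 in R 4.3.3 (filterByExpr, TMM, glmQLFit, glmQLFTest, Benjamini-Hochberg over all genes tested). Each side comparison and the undivided comparison used its 6 libraries, comparisons with time the 9 of a side, and interactions 12. Calls needed an adjusted p under 0.05 and a log2 fold change over 0.5 in size (interactions: adjusted p only). SE is the size of the log2 fold change divided by the square root of F, and approximate 95% intervals follow from it by the normal distribution. Levels use TMM factors over all 24 libraries, and ± is SD over n = 3 libraries for levels. Ratios of summed counts have exact binomial intervals. The scripts were tested on simulated data. Alternatives were RLE and total-count scaling, DESeq2 1.42.0, no filter or at least 10 counts in every library, 1 fit of all libraries, an adjusted p under 0.01, no limit on the fold, a replicate block and leaving out each library. At 20581720 to 39266497 counts per library, 3 counts set the floor.

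The 10 genes, the lists and the markers were chosen with earlier results of these data known. In the lists, at most 4 called genes per comparison, those with the largest fold and at least 1 CPM in a group, and the 3 genes most similar to each of the 10 could be named. Replicate numbers did not pair the libraries. Protein sequences and the authors' alignments were not used here.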

Additional observations from a re-analysis of the deposited data

Results flagged for a closer look

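The difference between the sides changed with stage or culture for several of the 10 genes, which was tested as an interaction in edgeR over 12 libraries. Between the cap and the bell stage, the buccal minus lingual log2 difference moved by -0.73 for Cxcl12, -1.31 for Cxcl14, -0.45 for Cxcl1, -1.40 for Ccl2, 0.68 for Cxcr4 and -1.02 for Il6. Over 2 days of culture it moved by -1.42 for Cxcl12, -0.60 for Cxcl14, 0.50 for Cxcl5, -0.68 for Ccl2, -0.61 for Cxcr4, 0.73 for Ackr1, 0.27 for Ackr3 and -1.82 for Il6. For Cxcr4 the sign of the side difference at the bell stage (0.35) is the opposite of that at the cap stage (-0.34), and for Il6 that of the culture (-0.97) is the opposite of the cap stage (0.84), although the Il6 difference at the cap stage rests on 7 to 20 counts per library. The direction of that Il6 difference was also fixed, since Il6 passed the filter on low counts there only through Cap_B. Of all genes tested, 32.5% passed the interaction with stage and 35.5% that with culture.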

How the results depend on the processing

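Of 210 recounts of how many of the 10 genes were called, 207 stayed within 1.5 times the reported count. The exceptions were 4 in place of 7 in Bell_W against Cap_W with at least 10 counts in every library, which removes genes from the test, 8 in place of 5 in Cap_L_2D against Bell_L with no limit on the fold, and 5 in place of 8 for the change of side differences over culture in 1 fit of all 24 libraries, where Cxcl5, Ccl2 and Ackr3 were lost and the cause was not tested. Leaving out 1 library at a time gave 5 to 8 genes in Bell_W against Cap_W (8 without Cap_W replicate 1), 5 to 6 in Cap_B against Cap_L and 5 to 7 for the change of side differences between stages. Of 1831 recomputed single values, 1771 kept their direction and their side of the threshold and 14 reversed, all of them uncalled. Ccl7 in Cap_L_2D against Bell_L turned with RLE (0.0057), DESeq2 (0.0093) and no filter (0.014). The others turned without 1 library, giving ranges of -0.085 to 0.116 for Ccl7 in Cap_L_2D against Bell_L, -0.016 to 0.047 for Ackr3 in Cap_B_2D against Cap_L_2D, -0.056 to 0.0062 for Cxcl14 in Bell_L against Cap_L, -0.046 to 0.049 for the change of Ackr3 between stages, and -0.029 to 0.159 for Cxcl1 and -0.94 to 0.085 for Ccl7 for the change over culture. The Cxcl1 change between stages was lost in the fit of all 24 libraries. With the replicate block the number of genes called was the reported one in all 12 comparisons (6 in Cap_B against Cap_L), and same-numbered libraries did not deviate together (correlations -0.047 to 0.086). Depth limits Ccl7 at the cap stage and Il6 in Cap_W, at 0 to 11 counts per library.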
